A study of Mus musculus with 2 samples.

Results

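The genes described here encode the factors that start and extend a protein chain on the ribosome, together with the kinases and modifying enzymes that act on those factors. Members were taken by symbol: Eif or Eef followed by a digit, without the cap-binding proteins Eif4e and Eif4e2, the scaffolds Eif4g1, Eif4g2 and Eif4g3, the helicases Eif4a1 and Eif4a2, the 4E-BP genes and the Y-linked Eif2s3y. The rule took 59 of the 32285 genes in the count tables. None of the measured values entered it, but it was chosen with earlier results of these data known. Of these, 44 were Eif symbols counted as initiation genes, 14 were Eef symbols counted as elongation genes, and 1, Eif2c5, carries an older symbol of the Argonaute family and was in neither group.

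The data came from sorted lumbar spinal microglia, captured in droplets and read from the 3′ end of their RNA with unique molecular identifiers (UMIs, so that PCR copies of a molecule are counted once). There was 1 library of control mice (Eif4ebp1fl/fl, labelled WT) and 1 of mice with the floxed alleles and Cre (Eif4ebp1fl/fl:TMEM119CreERT2), called 4E-BP1-cKO. The male mice were 8 to 10 weeks old, and all had received 4-OHT from P4 to P9. TMEM119CreERT2 drives recombination in microglia after 4-OHT, so that 4E-BP1, a repressor that binds the cap-binding protein eIF4E, is removed there from the early postnatal period on. How many mice went into a library was not given in the labels or methods read, and with 1 library per genotype no p-value can be given for any difference between the genotypes.

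Initiation begins when eIF2 with GTP brings the initiator tRNA to the small ribosomal subunit, which is held open for scanning by eIF1, eIF1A and the many-subunit eIF3 complex; eIF5 and eIF5B then act at the start codon. Under stress, kinases stop this step by phosphorylating eIF2, whose recycling needs the exchange factor eIF2B. In elongation, eEF1A delivers aminoacyl-tRNA, the eEF1B complex reloads eEF1A with GTP, and eEF2 moves the ribosome along the mRNA until it is held back by its own kinase, eEF2K. The mRNAs of the elongation factors, of some eIF3 subunits and of the ribosomal proteins belong to the TOP class, whose members begin with a C and a run of pyrimidines and are controlled together at the level of translation.

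A barcode stayed in if over 300 genes were detected and mitochondrial genes took less than 5% of its UMIs, as was the case for 1147 of 1216 control and 445 of 474 4E-BP1-cKO barcodes. Median depth was 3053 and 2776 UMIs per cell, and 0 barcodes were shared by the libraries. The 6 microglial markers P2ry12, Tmem119, Cx3cr1, Csf1r, Aif1 and Sall1 summed to 5487 CPM (UMIs per 1000000) in the control and 4919 CPM in the 4E-BP1-cKO library. Tmem119, whose promoter drives the Cre, was detected in 59.4% of control and 33.9% of 4E-BP1-cKO cells. The rest of the 6 were found in more similar shares of cells in the 2 libraries. At least 2 markers of another cell type were present in 36 control and 11 4E-BP1-cKO cells, most often markers of oligodendrocytes (15 and 4 cells). Eif4ebp1 itself had 95 UMIs (19.8 CPM) in the control and 51 (29.4 CPM) in the 4E-BP1-cKO library, but these 3′ tags do not report on the deleted part of the gene, so they do not check the genotype.

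The TOP class was the reason to look at the annotated starts. RefSeq (GRCm38.p6) windows were at hand for 46 of the 59 members. Windows of 30 bases are printed 5′ to 3′, with 15 bases on each side of the start, and capitals mark runs of at least 5 pyrimidines that open with a C within 10 bases of it. Those shown are the 4 members of the TOP list with a window (Eef1a1, Eef1b2, Eef2, Eif3f), the eIF2 subunit Eif2s3x, a pair of initiation factors for contrast (Eif3a, Eif5) and the eIF2 kinase Eif2ak3. They lie at chr9:78481710-78481739 (minus strand), chr1:63176816-63176845 (plus), chr10:81176616-81176645 (plus), chr7:108934400-108934429 (plus), chrX:94212637-94212666 (minus), chr19:60790679-60790708 (minus), chr12:111538086-111538115 (plus) and chr6:70844500-70844529 (plus), in the order below.
Eef1a1: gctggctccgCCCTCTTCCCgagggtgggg
Eef1b2: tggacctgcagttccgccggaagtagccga
Eef2: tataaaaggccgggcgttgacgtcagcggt
Eif3f: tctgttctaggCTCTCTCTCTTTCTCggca
Eif2s3x: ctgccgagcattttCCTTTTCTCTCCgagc
Eif3a: cggggctcgggcggcggcgctgccgccgcg
Eif5: gagatcgacgtgcatgcgagccaatgacaa
Eif2ak3: cgcagagcagacgcacggaaCCCTCgctca

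A C followed by 4 pyrimidines stood exactly at an annotated start in 3 of the 46 members (6.52%; Eif2c5, Eif2s3x and Eif3f) and in 813 of 27025 genes with a window (3.01%), on the strand of the gene. Among ribosomal protein genes it was 14 of 65 (21.5%). Within 10 bases of a start, the motif was found in 14 of 46 members (30.4%) and in 33.3% of all genes. A gene with several annotated starts was counted once if any of them matched. These starts are annotations, since 3′ tags do not read the 5′ end of an mRNA.

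UMI counts are given below as counts per 1000000 (CPM) of a library's or a class's summed UMIs, without scaling to gene length, so that levels of different genes are not ranked. Of the 59 members, 42 had at least 100 UMIs over both libraries, 11 had 20 to 99, 4 had 1 to 19 (Eif3j2, Eif5a2, Eef1akmt3 and Eef1a2), and 2 had none, Eif4e1b and Eif2c5. Reads of near-identical copies can be hard to assign to a single gene. The values of Eef1a1 and Eef1a2, Eif1 and Eif1b, Eif1a and Eif1ax, Eif5a and Eif5a2, and Eif3j1 and Eif3j2 are uncertain to that extent. In the first of these pairs 10642 UMIs went to Eef1a1 and 2 to Eef1a2, which is known as the form of neurons and muscle.

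The first question was how far initiation and elongation genes vary with the ribosomal protein content of the cell. The ribosomal protein share, the percentage of a cell's UMIs on 85 Rpl and Rps genes, had a median of 2.22% in the control and 3.53% in the 4E-BP1-cKO library. Cells were divided into low (under 3%), middle, and high (at least 8%) classes. The low class held 657 control and 212 4E-BP1-cKO cells, the middle class 346 and 144, and the high class 144 and 89. Each library was analysed on its own, which gives 2 readings of the same contrast. Cells of 1 library are not replicates, and all intervals cover counting error only.

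Core elongation factors were 4.7 to 5.0 times as high in high as in low share cells, whereas initiation genes, eIF2 kinases included, were 1.8 to 2.0 times as high. The summed level of the 6 core elongation genes was 898 CPM in low, 2278 in middle and 4492 CPM in high share cells of the control library. In the 4E-BP1-cKO library the same sums were 963, 2538 and 4486 CPM. The high to low ratio was 5.0 (95% counting interval 4.73 to 5.29) in control and 4.66 (4.24 to 5.13) in 4E-BP1-cKO cells. Eef1a1 supplied most of these UMIs, but without it the ratio was 4.50 (4.07 to 4.98) and 4.76 (3.99 to 5.71). Over all 14 elongation genes, Eef2k and the other modifying enzymes included, the ratio was 4.18 (3.97 to 4.41) and 4.09 (3.74 to 4.47).

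The 44 initiation genes summed to 2327, 3606 and 4555 CPM over low, middle and high share control cells, and to 2594, 4191 and 4604 CPM in the 4E-BP1-cKO library. Their high to low ratio was 1.96 (1.88 to 2.04) and 1.78 (1.66 to 1.90). The counting intervals of the initiation and elongation ratios did not overlap in either library, but they leave out the spread between cells and between mice. Without Eif1 the initiation ratio was 1.71 (1.63 to 1.79) and 1.53 (1.42 to 1.65). With Eif1 but without the eIF2 kinases it was 2.07 (1.99 to 2.16) and 1.86 (1.74 to 1.995). The ribosomal protein genes, by which the classes were drawn, differed 8.21-fold and 8.69-fold, and these values only describe the classes.

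**Figure D1:**
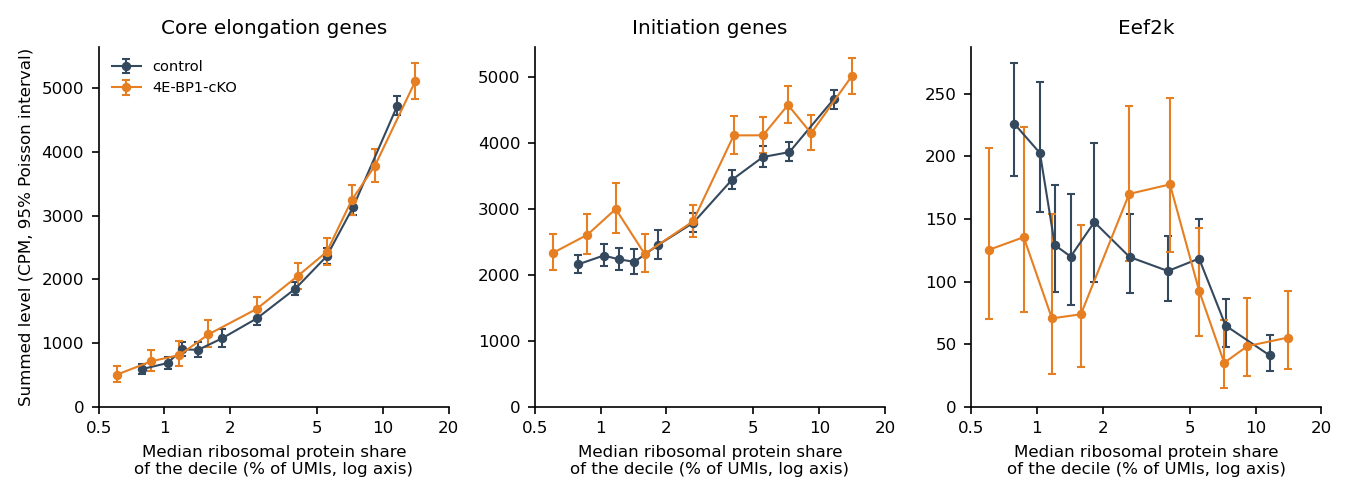
Summed level in CPM (y axis, bars are 95% Poisson counting intervals) against the median ribosomal protein share of each decile of the cells (x axis, log scale, 44 or 45 4E-BP1-cKO and 114 or 115 control cells per decile). Core elongation genes climbed from 590 to 4728 CPM in control and from 502 to 5114 CPM in 4E-BP1-cKO cells, initiation genes from 2160 to 4663 and from 2333 to 5012 CPM, while Eef2k had 226 and 40.9 CPM in the lowest and highest control decile and, in 4E-BP1-cKO cells, 125 and 55.2 CPM with its highest value, 178 CPM, in the sixth.

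Across deciles of the cells ordered by ribosomal protein share, core elongation genes climbed, with 590 CPM in the lowest decile and 4728 CPM in the highest in control cells. Initiation genes stayed between 2160 and 2454 CPM in the 5 lowest control deciles and lay at 2791 CPM or more in the others. The lowest and highest deciles of the 4E-BP1-cKO library differed in the same direction for both groups.

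Individual members were compared on log2(CPM + 1) where they had at least 100 UMIs over the low and high share cells of both libraries. This held for 34 members, and a gene was called when it lay past 1.5-fold in the same direction in both libraries. Higher in high share cells were 17 of the 34, against 15.4% of the 5448 genes compared, and lower were 3, against 27.9% of all genes. The median difference over the 34 was 0.98 in control and 0.96 in 4E-BP1-cKO cells, while over all genes compared it was -0.32 and -0.36. The minimum was set on the compared cells themselves, so a gene can pass it through the class in which it is high. With a minimum of 50 UMIs in the middle cells instead, which take no part in the comparison (an alternative chosen after seeing the data), 21 of 42 members were higher (17.1% of 6472 genes) and 3 lower (24.2%).

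Because ribosomal protein UMIs take up more of the total in high share cells, the contrast was also scaled to the UMIs of other genes, without ribosomal protein and mitochondrial ones. This moved the median of all genes to -0.15 and -0.18, and the split of all genes from 841 higher and 1520 lower to 1012 higher and 1082 lower. Among members it gave 19 higher and 3 lower. The differences below are on the scale of all UMIs, where the median gene lies at -0.32 and -0.36.

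**Figure D2:**
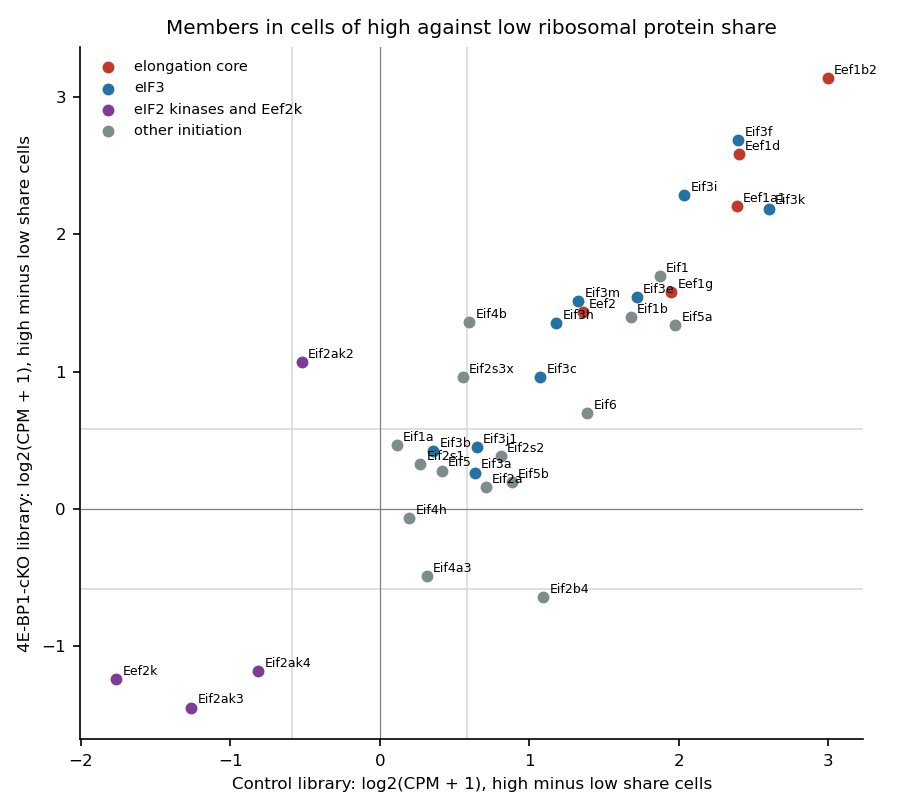
Difference between high and low share cells in log2(CPM + 1) for the 34 members compared, in the control (x axis) and 4E-BP1-cKO library (y axis). Pale lines mark 1.5-fold. The 5 core elongation genes and most eIF3 subunits lie at the upper right (Eef1b2 at 3.0 and 3.14), and Eef2k, Eif2ak3 and Eif2ak4 lie at the lower left.

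All 5 core elongation genes that could be compared were higher in high share cells, against 15.4% of all genes. Eef1b2, a nucleotide exchange subunit of eEF1B, had 74.5 CPM in low, 297 in middle and 602 CPM in high share control cells, and 74.4, 296 and 661 CPM in the 4E-BP1-cKO library. Its log2 differences of 3.0 and 3.14 were of the size of the ribosomal protein genes, whose median was 3.03 and 3.14. Eef1a1, which carries aminoacyl-tRNA to the ribosome, went from 607 over 1596 to 3183 CPM in control and from 689 over 1817 to 3180 CPM in 4E-BP1-cKO cells, or 2.39 and 2.21 on the log2 scale. The high share values of the 2 libraries were nearly equal.

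The other eEF1B subunits showed the same order of the classes. Eef1d had 33.8, 96.4 and 183 CPM in control and 26.6, 109 and 164 CPM in 4E-BP1-cKO cells (log2 difference 2.40 and 2.58). Eef1g had 38.6, 88.0 and 152 CPM and 46.0, 102 and 139 CPM (1.95 and 1.58). Eef2, the translocase, differed least within the core, at 1.36 and 1.43, with 144, 201 and 371 CPM in control and 126, 215 and 341 CPM in 4E-BP1-cKO cells. Eef1a2 had too few UMIs to compare.

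Eef2k, whose product phosphorylates and inactivates eEF2, went the other way. It had 169 CPM in low, 93.8 in middle and 49.0 CPM in high share control cells, and 124, 100 and 52.0 CPM in the 4E-BP1-cKO library, a log2 difference of -1.76 and -1.24. At the level of RNA, Eef2k was lower in the class of cells in which Eef2 was higher, in both libraries. A link between them was not tested. The remaining 7 elongation symbols, which include the methyltransferases of eEF1A and eEF2 and the multisynthetase component Eef1e1, were below the minimum in this contrast.

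Among initiation genes, 12 of 28 compared (42.9%) were higher in high share cells, against 15.4% of all genes, and 2 (7.14%) were lower, against 27.9%. The eIF3 complex, which bridges the small subunit and the mRNA, supplied 7 of the 12, out of 10 of its genes compared. Eif3f had 31.6, 86.9 and 171 CPM in low, middle and high share control cells and 26.6, 90.0 and 177 CPM in the 4E-BP1-cKO library (2.40 and 2.69). Eif3k differed by 2.60 and 2.19, Eif3i by 2.04 and 2.29, Eif3e by 1.72 and 1.54, Eif3m by 1.33 and 1.51, Eif3h by 1.18 and 1.35, and Eif3c by 1.07 and 0.96. These subunits covered a wide range, although they are parts of 1 complex. Eif3c and Eif3m were not called after thinning, nor were Eif3c and Eif3e within the shallower cells.

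The other 3 eIF3 genes compared did not pass in both libraries. Eif3a, the largest subunit, had 184, 205 and 287 CPM in control and 223, 221 and 268 CPM in 4E-BP1-cKO cells, which gave 0.64 and 0.27. Eif3j1, a loosely bound subunit, gave 0.65 and 0.45, and Eif3b gave 0.36 and 0.42. Each stood above the median of all genes in both libraries. Of the eIF3 genes below the minimum, Eif3d, Eif3l and Eif3g had log2 values of 1.82 and 1.90, 1.54 and 1.26, and 1.76 and 1.79. These rested on 27 to 46 UMIs in high and 13 to 22 in low share control cells. In the 4E-BP1-cKO library they rested on only 10 to 17 and 3 to 8 UMIs.

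The factors of scanning and start codon choice were divided. Eif1, which guards the fidelity of start codon choice, had 296, 809 and 1088 CPM in the 3 control classes and 374, 1154 and 1212 CPM in the 4E-BP1-cKO classes (1.87 and 1.70). Most of its difference lay between low and middle cells. Its copy Eif1b gave 1.68 and 1.40. Eif5, the GTPase activator of eIF2, had 270, 404 and 361 CPM in control and 363, 473 and 441 CPM in 4E-BP1-cKO cells, with log2 differences of 0.42 and 0.28, with its highest level in the middle class of both libraries. Eif1a gave 0.12 and 0.46, and Eif5b, which joins the subunits, gave 0.88 and 0.19, and neither was called.

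None of the 4 genes of eIF2 and initiator tRNA delivery that could be compared was called. Eif2s1, the alpha subunit that the kinases phosphorylate, gave 0.27 and 0.33, Eif2s2 gave 0.81 and 0.39, Eif2s3x 0.56 and 0.96, and Eif2a 0.71 and 0.16. All were above 0 in both libraries. For eIF2B, only Eif2b4 could be compared, and its differences had opposite signs, 1.09 and -0.64, on 8 to 44 UMIs per class.

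Of the 28 initiation genes compared, the 2 called lower in high share cells were kinases of eIF2. Eif2ak3 (PERK, the kinase of endoplasmic reticulum stress) had 59, 49.0 and 24.0 CPM in control and 86.7, 49.4 and 31.2 CPM in 4E-BP1-cKO cells, or -1.26 and -1.45 on the log2 scale, and it was not called when cells were thinned to 872 UMIs. Eif2ak4 (GCN2, the kinase of amino acid shortage) had 63.3, 51.1 and 35.6 CPM and 53.1, 36.3 and 22.9 CPM, or -0.81 and -1.18. Eif2ak2 (PKR, the kinase of double-stranded RNA) gave -0.52 in control and 1.07 in the 4E-BP1-cKO library, where it rested on 12 and 22 UMIs. Eif2ak1 (HRI, the kinase of heme shortage) was below the minimum, with -0.27 and -0.39.

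In the group of helicase helpers and cap-related proteins, Eif4b, a cofactor of the eIF4A helicase, was called at 0.60 and 1.36. The control value lay just above the limit of 1.5-fold, 0.58 on the log2 scale, and Eif4b was not called at a mitochondrial limit of 10%, with a pseudocount of 10 CPM, after thinning, without the cells with markers of another type, or within the deeper or the shallower cells. Eif4h gave 0.20 and -0.06, and Eif4a3, the helicase of the exon junction complex, gave 0.31 and -0.49. Eif5a, which helps the ribosome through difficult peptide bonds and is here counted with the Eif symbols, gave 1.98 and 1.34. Eif6, which keeps the large subunit from joining too early, gave 1.39 and 0.70, and was not called at a mitochondrial limit of 10%, with a pseudocount of 10 CPM, with class limits of 2% and 10%, or within the deeper cells.

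All 8 genes of the list of known TOP mRNAs (Eef1a1, Eef1b2, Eef1d, Eef1g, Eef2, Eif3e, Eif3f and Eif3h) were higher in high share cells, against 15.4% of all genes. Their median difference was 2.17 and 1.89. The sum of the list went from 1031 to 4929 CPM in control and from 1075 to 4900 CPM in 4E-BP1-cKO cells. Since ribosomal protein mRNAs are of the same class, this lists members that are known to share a feature with the genes that drew the classes. Eif2s3x, which holds the motif at its annotated start, was not among those called, with differences of 0.56 and 0.96. It was called at a mitochondrial limit of 10% and with totals without ribosomal protein and mitochondrial UMIs. The same held after thinning and without the cells with markers of another type. Eef1b2 and Eef2 were called, and the windows printed for them hold no such run, which says nothing more than that these letters are not in the annotated window.

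Of other genes of translation, from a list of 23, 17 were compared. Higher were 7 (41.2%, against 15.4% of all genes) and lower 2 (11.8%, against 27.9%). The 7 were Tpt1 (3.09 and 3.14), Btf3 (2.54 and 2.35) and Naca (2.27 and 2.15) of the nascent chain complex, Rack1 of the small subunit (2.46 and 2.29), Pabpc1 (0.95 and 1.25), Denr (0.64 and 0.68) and Mcts1 (0.61 and 1.80). The 2 lower were Gfm2, a mitochondrial recycling factor (-1.61 and -2.41), and Eefsec, the elongation factor of selenocysteine (-0.88 and -0.98). Tpt1, Rack1 and Btf3 are shorter than 10 kb, a range in which 55.9% of all genes were higher. Naca, Pabpc1, Denr and Mcts1 lie between 10 and 30 kb, where 19.2% were. Gfm2 and Eefsec are longer than 30 kb, where 41.5% of all genes were lower. The release factors Etf1 (-0.27 and -0.73) and Gspt1 (-0.17 and -0.24) were not called. The list's median was 0.49 and 0.39, beside 0.76 and 0.58 for the initiation genes and 2.39 and 2.21 for the core elongation genes.

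Targets of the integrated stress response, which the eIF2 kinases start, were checked beside the kinases. Of 4 compared, 2 were higher in high share cells (50%, against 15.4% of all genes), Ppp1r15a (1.11 and 1.38) and Atf4 (0.93 and 1.10). Ddit3 (-0.05 and 0.03) and Ppp1r15b (0.33 and -0.62) were not called. All 4 genes are shorter than 10 kb, and among all genes under that length 55.9% were higher, so the share of 50% was not above that of short genes. Ddit3 is listed under 2 identifiers, of which 1 held all the UMIs.

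Several other measures moved with the classes. Median depth was 2354 UMIs in low and 6520 in high share control cells, and 1972 and 4683 in the 4E-BP1-cKO library. Malat1, a nuclear RNA, took 4.68% of UMIs in low and 2.14% in high share control cells, and 4.70% and 2.81% in 4E-BP1-cKO cells. Immediate early genes, known to be induced by tissue dissociation, took 0.905% and 1.49% in control, and 1.10% and 1.94% in 4E-BP1-cKO cells. From low to high share cells the summed 6 microglial markers rose 1.57-fold in control and 1.46-fold in 4E-BP1-cKO cells. Mitochondrial genes rose 1.45-fold and 1.58-fold, and immediate early genes 1.65-fold and 1.77-fold. Initiation genes rose 1.96-fold and 1.78-fold, and without Eif1 1.71-fold and 1.53-fold, so a rise of about this size was not particular to them. The part of nuclear RNA and of these other groups in the contrast was not tested. Depth was looked at directly: among cells above the median depth the log2 ratio of summed levels was 0.91 and 0.78 for initiation genes, and among the shallower cells it was 1.31 and 0.97. For all 14 elongation genes, rather than the core alone, it was 1.99 and 2.0 in the deeper and 2.48 and 1.70 in the shallower cells. Of the 17 members called, 15 were also called in the deeper and 14 in the shallower cells, and the 3 lower members were called in both.

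**Figure D3:**
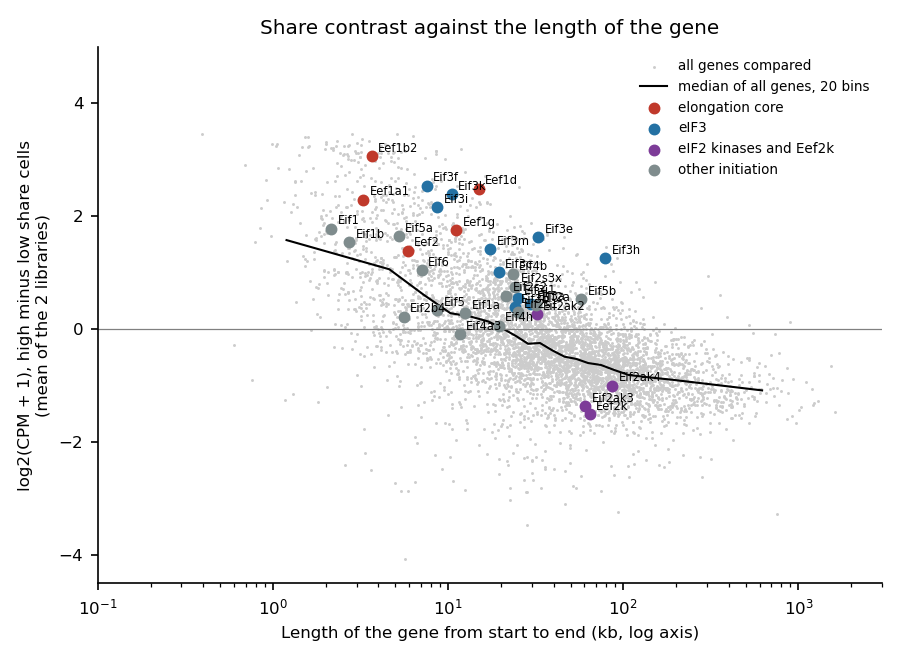
Mean of the 2 libraries' differences between high and low share cells in log2(CPM + 1) (y axis) against the length of the gene on GRCm38.p6 (x axis, kb, log scale), for the 34 members and 5289 genes with an annotated length. The line is the median of all genes in 20 bins; core elongation genes and eIF3 subunits lie above it, and Eef2k, Eif2ak3 and Eif2ak4 are long genes below it.

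The length of the gene moved with the contrast over all genes. Over 5289 genes with an annotated length, Spearman's rho between length and the log2 difference was -0.63 in control and -0.61 in 4E-BP1-cKO cells, a description across genes, which are not independent replicates. The median length was 36.3 kb over these genes and 18.4 kb over the 34 members. Within each range of length, initiation genes were called higher more often than all genes: 6 of 8 (75.0%) against 55.9% under 10 kb, 4 of 13 (30.8%) against 19.2% from 10 to 30 kb, and 2 of 7 (28.6%) against 1.87% from 30 kb on. Those 2 were Eif3e (32.7 kb) and Eif3h (78.9 kb). These counts are small, and the difference in shares was not tested.

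Core elongation genes were short, from 3.27 kb for Eef1a1 to 15 kb for Eef1d, and all 5 were called where 55.9% and 19.2% of genes of their length range were. Under 10 kb the median difference was 2.39 and 2.21 over 3 core elongation genes, and 1.78 and 1.37 over 8 initiation genes. From 10 to 30 kb it was 2.18 and 2.08 over 2 core elongation genes, and 0.60 and 0.45 over 13 initiation genes. The part of length in the gap between the 2 groups was not tested. The 3 lower members were long: Eef2k spans 64.6 kb, Eif2ak3 60.8 kb and Eif2ak4 86.7 kb. From 30 kb on, 41.5% of all genes were lower in high share cells, with a median difference of -0.64 and -0.70. Of the 8 members of that length, 3 (37.5%) were lower, and the median of the 8 was 0.09 and 0.18. The 3 were picked by their call, so their place below the median of all genes was nearly fixed beforehand.

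Over single cells, the covariation was described after each cell was thinned to 872 UMIs. This could be done for 1058 control and 375 4E-BP1-cKO cells, and 89 and 70 were shallower. Spearman's rho of the ribosomal protein share with the share of core elongation genes was 0.54 in control and 0.64 in 4E-BP1-cKO cells. Without Eef1a1 it was 0.36 and 0.44. With initiation genes it was 0.35 and 0.27, and 0.24 and 0.16 without Eif1. With the eIF2 kinases it was -0.03 and -0.03, but 88.3% of thinned control and 87.2% of thinned 4E-BP1-cKO cells held no UMI of these kinases. Both shares come from the same cell and the same total, and after thinning a cell held a median of 1 core elongation UMI in both libraries and of 2 and 3 initiation UMIs. Among single genes rho was 0.50 and 0.55 for Eef1a1, 0.33 and 0.31 for Eif1, 0.01 and 0.13 for Eif5, and -0.15 and -0.04 for Eef2k. Between core elongation and initiation genes rho was 0.29 and 0.16.

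The second question was whether these genes differ between the genotypes when 4E-BP1 is removed from microglia. No member was past 1.5-fold between the libraries: 0 of 42 members were past it in the 4E-BP1-cKO direction, against 1.87% of 7184 genes with at least 100 UMIs, and 0 of 42 in the control direction, against 5.01%. The 11 members with 20 to 99 UMIs held 0 past it as well. Cells were also thinned to 872 UMIs, so that each weighed the same, which left out 89 shallower control and 70 shallower 4E-BP1-cKO cells. Then 9 members were past 1.5-fold higher (11.0% of all genes) and 2 lower (14.8%), on far fewer UMIs per gene. The 9 were Eef1g, Eif2s1, Eif3c, Eif3g, Eif3h, Eif4a3, Eif4e3, Eif4enif1 and Eif6, and the 2 were Eif1b and Eif2s3x. Eif3h and Eif4enif1 changed sign, since without thinning they lay at -0.04 and -0.16. Without thinning, log2 ratios of 4E-BP1-cKO over control ran from -0.45 for Eif2ak4 to 0.48 for Eif3g. Of the 42 members, 28 (66.7%) had the higher level in the 4E-BP1-cKO library, against 45.2% of all genes.

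**Figure D4:**
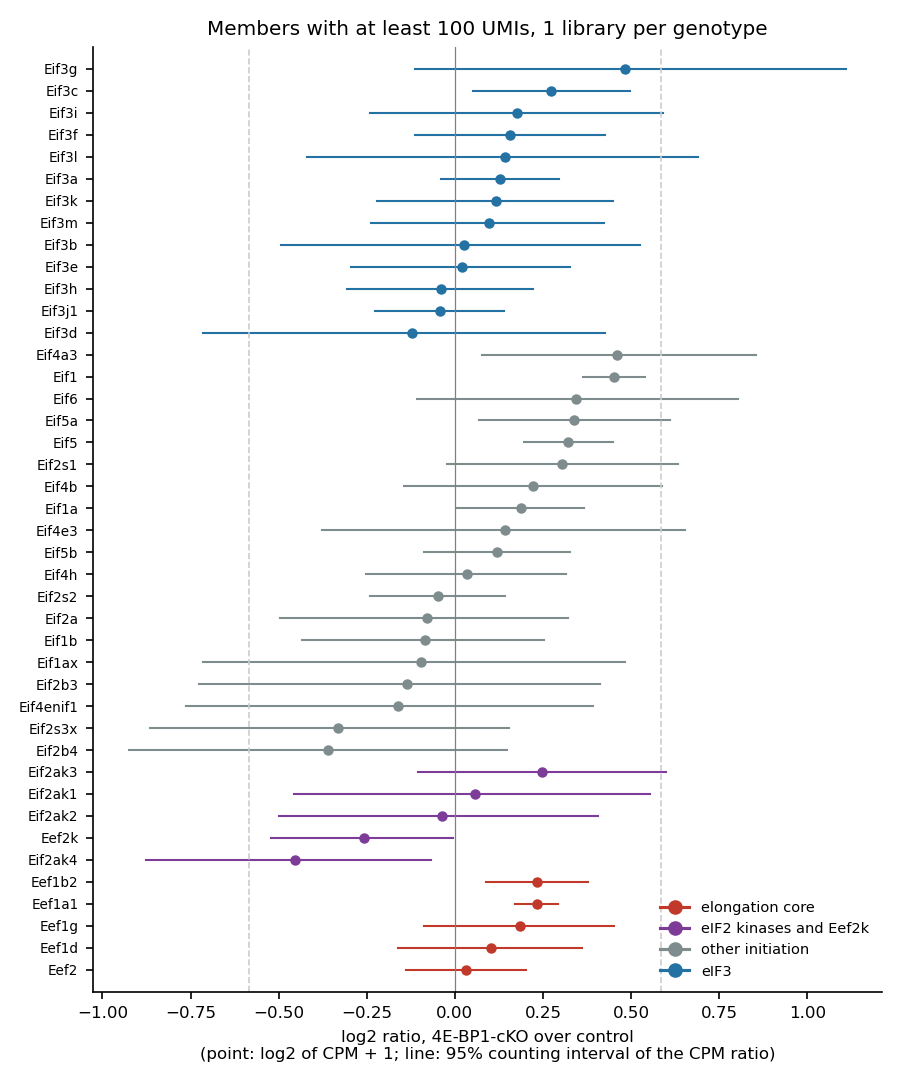
Log2 ratio of 4E-BP1-cKO over control (x axis) for the 42 members with at least 100 UMIs, with 95% counting intervals of the CPM ratio as lines and 1.5-fold as dashed lines. All points lie between -0.45 (Eif2ak4) and 0.48 (Eif3g); the intervals do not include the spread between mice.

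Summed initiation genes had 3315 CPM in the control and 3785 CPM in the 4E-BP1-cKO library, a ratio of 1.14 (95% counting interval 1.11 to 1.18). Core elongation genes had 2222 and 2565 CPM, a ratio of 1.15 (1.11 to 1.20). Both groups thus differed by a like amount between the libraries, with a median gene at 0.11 for initiation and 0.18 for core elongation on the log2 scale, while the median over all genes was -0.03. Ribosomal protein genes had a ratio of 1.19 (1.18 to 1.20). How far mice of 1 genotype differ in these values cannot be told from 1 library each.

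Counting error alone was exceeded by 10 members, whose interval left out a ratio of 1: 8 were higher in the 4E-BP1-cKO library and 2 were lower. For all genes these shares were 11.1% and 16.1%. The 8 included Eif1, with 670 and 916 CPM (ratio 1.37, 1.29 to 1.45), Eif5, with 342 and 428 CPM (1.25, 1.15 to 1.37), and Eef1a1, with 1556 and 1827 CPM (1.17, 1.13 to 1.22). Eef1b2 had 276 and 325 CPM, Eif3c 114 and 138, Eif5a 75.6 and 95.7, Eif4a3 35.4 and 49.0, and Eif1a 184 and 209 CPM. The 2 lower were Eif2ak4, with 52.5 and 38.1 CPM (0.73, 0.54 to 0.95), and Eef2k, with 113 and 94.6 CPM. The interval of Eef2k reached 1.0 when rounded, and its log2 ratio of -0.26 turned to 0.14 when cells were thinned to 872 UMIs.

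The eIF3 genes had a summed ratio of 1.07 (1.01 to 1.13) and the eIF2 genes of 0.98 (0.89 to 1.08). The eIF2 kinases together had 160 and 155 CPM, a ratio of 0.97 (0.84 to 1.11), which leaves room for a difference of either sign. Within them Eif2ak3 had 47.5 and 56.5 CPM and Eif2ak4 the reverse order. Eef2 itself had 216 and 221 CPM. Beside the members, the stress response target Ppp1r15a had 673 and 1022 CPM, a log2 ratio of 0.60, and lay past 1.5-fold, but with the classes of ribosomal protein share weighted alike it gave 0.50 and did not. Ppp1r15a was 1 of 5 stress response targets with at least 100 UMIs past that limit (20%, against 1.87% of all genes). Atf4 gave 0.46, Sesn2 0.13, Ppp1r15b 0.03 and Ddit3 -0.06. The poly(A)-binding protein Pabpc4 gave -0.72. In the list of other translation genes, it was 1 of 18 past 1.5-fold lower (5.56%, against 5.01% of all genes).

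The classes of ribosomal protein share were not equally filled in the 2 libraries. High share cells were 12.6% of control cells (95% Clopper-Pearson interval 10.7% to 14.6%) and 20% of 4E-BP1-cKO cells (16.4% to 24.0%). Low share cells were 57.3% (54.4% to 60.2%) and 47.6% (42.9% to 52.4%). Since the summed levels of initiation and core elongation genes rose with this share, the libraries were also compared within each class.

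**Figure D5:**
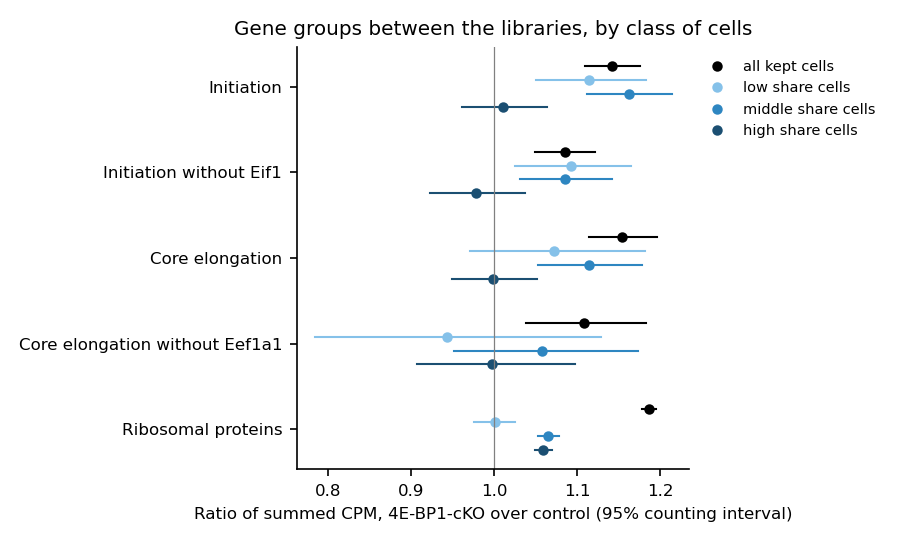
Ratio of summed CPM, 4E-BP1-cKO over control (x axis, lines are 95% counting intervals), for 5 gene groups over all kept cells and within each class of ribosomal protein share. Core elongation genes went from 1.15 over all cells to 1.0 in high share cells, and initiation genes from 1.14 to 1.01.

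Within high share cells the ratio was 1.01 (0.96 to 1.06) for initiation and 1.0 (0.95 to 1.05) for core elongation genes. Within low share cells it was 1.11 (1.05 to 1.18) and 1.07 (0.97 to 1.18), and within middle cells 1.16 (1.11 to 1.21) and 1.11 (1.05 to 1.18). With the classes weighted alike in both libraries, the ratio was 1.11 for initiation and 1.06 for core elongation genes, against 1.14 and 1.15 without the weighting. For core elongation genes without Eef1a1 the weighted ratio was 1.0, for initiation genes without Eif1 1.07, and for ribosomal protein genes 1.05. Before the weighting, core elongation genes without Eef1a1 had 1.11 (1.04 to 1.18) and initiation genes without Eif1 1.08 (1.05 to 1.12). The median member stood at 0.01 on the log2 scale after the weighting and at 0.11 before it.

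Eif1, the initiation gene with the narrowest counting interval, was looked at in the same way. Its log2 ratio was 0.34 in low, 0.51 in middle and 0.16 in high share cells, and 0.37 with the classes weighted alike, against 0.45 over all cells. Eef1a1 gave 0.18, 0.19 and 0.00, and 0.12 with the weighting. Immediate early genes took more UMIs of the 4E-BP1-cKO library in every class, with ratios of 1.21, 1.31 and 1.30, and heat shock genes fewer, with 0.57, 0.76 and 0.70. The part of these differences in the values of Eif1 and the other members was not tested.

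The order of the members in the high to low contrast was alike in the 2 libraries. Over the 34 members compared, Spearman's rho between the libraries was 0.84 and Pearson's r was 0.88, across genes that share the classes' definition. Differences had the same sign in 30 members, 27 above and 3 below 0, and opposite signs in Eif4h, Eif4a3, Eif2ak2 and Eif2b4.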

How the data were processed

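The deposited values are UMI counts, whole numbers for each gene in each barcode, which the authors obtained from Cell Ranger count 8.0.1 (mm10) after its cell calling and left without normalization. The release of the annotation was not given in the sources used here. Cells needed over 300 detected genes and less than 5% mitochondrial UMIs; doublets stayed in, and Scrublet served as an alternative. UMIs were summed per library or class and scaled to 1000000; 1 CPM was added for log2 values. Ratios have exact conditional binomial 95% intervals, levels exact Poisson and shares of cells Clopper-Pearson ones, which cover counting error only. Kept libraries held 4803562 and 1734332 UMIs. No test across samples was possible. The members, lists and classes were chosen with earlier results of these data known. Every member with at least 100 UMIs could be named. Gene lengths and start windows are RefSeq's on GRCm38.p6, matched by symbol. Ratios and intervals were tested on simulated counts with Poisson error only, and thinning on the counts of the 4E-BP1-cKO library. Python 3.11.15, numpy 2.4.6, scipy 1.17.1, pandas 2.3.3, scanpy 1.11.5 and edgeR 4.0.16 (TMM factors) were used. The value of 1 marker gene of the list for microglia is not reported here.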

Additional observations from a re-analysis of the deposited data

Results flagged for a closer look

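The difference between high and low share cells, in log2(CPM + 1), had opposite signs in the 2 libraries for 4 of the 34 members compared, and the difference between the libraries was not tested. Eif2ak2 gave -0.52 in the control and 1.07 in the 4E-BP1-cKO library. Eif2b4 gave 1.09 and -0.64. Eif4a3 gave 0.31 and -0.49, and Eif4h gave 0.20 and -0.064. Each library's value stands for 1 library, and the classes held 8 to 60 UMIs of Eif2ak2 and Eif2b4.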

How the results depend on the processing

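No paired analysis was possible because there was 1 library per genotype. A mitochondrial limit of 10%, more than 500 detected genes, removal of Scrublet doublets, TMM factors and leaving out cells with markers of another type (chosen after seeing the data) moved no value or count beyond its limits, but among members higher in high share cells the 10% limit lost Eif4b and Eif6 and gained Eif2s3x, and leaving out those cells lost Eif4b and gained Eif2s3x. Between the libraries, cells thinned to 872 UMIs gave log2 ratios of 0.30 for initiation and 0.37 for all 14 elongation genes (0.19 and 0.18 without), with 9 members past 1.5-fold higher (11.0% of all genes) and 2 lower (14.8%), and turned Eef2k to 0.14. Weighting the classes alike gave 0.15 and 0.064. The mean over cells of CPM put 2 members past 1.5-fold higher (4.73% of all genes) and 1 lower (7.66%). For initiation genes in high against low share cells the log2 ratio (0.97 in control, 0.83 in 4E-BP1-cKO) was 1.14 and 1.01 without ribosomal protein and mitochondrial UMIs, 1.05 and 0.93 with class limits of 2% and 10%, 1.31 and 0.97 in cells at or below the median depth, 1.07 in control as the mean over cells and 0.65 in 4E-BP1-cKO when thinned. For all 14 elongation genes (2.06 and 2.03) these were 2.23 and 2.21, 2.36 and 2.46, and 2.48 and 1.70, with 2.22 in control when thinned. Without Eef1a1, the rest of the 14 gave 1.52 and 1.70 (chosen after seeing the data). With a minimum of 200 UMIs, 22 members could be compared, of which 14 were higher (15.4% of all genes) and 1 lower (32.3%) in high share cells. Spearman's rho without thinning was 0.51 and 0.53 for initiation and 0.71 and 0.76 for core elongation genes, and with shares of the UMIs outside ribosomal protein genes (also chosen after seeing the data) 0.49 and 0.40, and 0.65 and 0.73. The causes of these shifts were not tested. Depth limited the 17 members with under 100 UMIs, for which no log2 value is given.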
